A study of Mus musculus with 8 samples.

Results

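Hair germ was set against interfollicular epidermis (IFE) within the same newborn transgenic mice, across all genes expressed in their skin epithelium. The 4 RNA-seq libraries compared were hair germ of transgenic pups 4 and 6 and IFE of the same pups 4 and 6, out of 8 libraries in the series. They were chosen by their titles, and the pup number names the animal, so each pup gave 1 library of each population. Of 23433 gene symbols counted, 14176 passed the filter on low counts and were tested. The transgenic pups carried 2 alleles of a doxycycline-switched system, K14rtTA, which expresses the transactivator from the keratin 14 promoter, and pTRE2-200bcl, the miR-200 construct it turns on. That promoter is active in basal keratinocytes, and cells of both populations were sorted on a keratin 14 reporter. The 4 remaining libraries were hair germ and IFE of control pups 3 and 5, of which pup 3 carried K14rtTA alone and pup 5 carried pTRE2-200bcl alone. All 4 pups were taken at postnatal day 0.5 on a mixed background, and their dams ate doxycycline chow during pregnancy. Cells of all libraries were sorted from skin as positive for K14RFP, a red fluorescent keratin 14 reporter, and high for alpha6 integrin, with high P-cadherin for hair germ and low P-cadherin for IFE.

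The hair germ is the epithelial bud from which a follicle grows, and the IFE is the sheet of skin epithelium between follicles. Buds are known to secrete Sonic hedgehog, which signals through Patched and Smoothened to Gli transcription factors in the bud and in the dermis below it, and to respond to Wnt and ectodysplasin signals. The miR-200 family is abundant in epithelia and is known for repressing Zeb1 and Zeb2, a pair of transcription factors that repress E-cadherin. A microRNA pairs with its targets mainly through its seed, bases 2 to 8 from its 5′ end.

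The 5 mature miR-200 microRNAs of the mouse genome fall into 2 seed groups, and they are shown as the family to which the construct belongs. The name of the construct does not by itself say which of the 5 it carries. The sequences are from RefSeq (GRCm38.p6), 5′ to 3′, with the seed in capitals, and the first 3 share a seed that differs from that of the last 2. The loci of miR-200b, miR-429 and miR-200a lie on chromosome 4 and those of miR-200c and miR-141 on chromosome 6, all on the minus strand.
miR-200b-3p: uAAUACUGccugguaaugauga
miR-429-3p: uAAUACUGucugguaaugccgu
miR-200c-3p: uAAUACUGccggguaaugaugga
miR-200a-3p: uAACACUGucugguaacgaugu
miR-141-3p: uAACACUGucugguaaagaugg
A feature counted as miR200primary stood at 526 and 797 CPM in hair germ of pups 4 and 6, against 607 and 714 CPM in IFE. It stood at 0.176 and 1.40 CPM in control hair germ of pups 3 and 5, against 3.83 and 2.63 CPM in control IFE. All 4 transgenic libraries were far above all 4 control libraries, and within transgenic pups the 2 populations overlapped (log2 fold change 0.00, SE 0.32, adjusted p = 0.998). Counts of this primary transcript do not measure the mature microRNAs.

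The 4 libraries held 10775495 and 7109871 counts in genes for hair germ of pups 4 and 6, against 9113851 and 11684585 for IFE, within the 7109871 to 14039583 of all 8 libraries. Rn45s, the ribosomal RNA precursor, took 13.0% and 6.40% of counts in hair germ, against 29.0% and 4.17% in IFE. Among these 4 libraries IFE of pup 4 stood apart on this measure. In control pups 3 and 5 Rn45s took 5.66% and 3.56% in hair germ, against 30.6% and 3.75% in IFE. Transgenic IFE of pup 4 and control IFE of pup 3 were thus the 2 libraries richest in Rn45s. Over the 14176 genes the 2 hair germ libraries correlated at a Pearson r of 0.878 in log2 CPM, and the 2 IFE libraries at 0.969. Genes used in the sort went as follows. Cdh3, which encodes the P-cadherin that set the gate, stood at 421 and 576 CPM in hair germ of pups 4 and 6, against 281 and 309 CPM in IFE. The hair germ libraries were the higher pair, and the difference did not pass without a block for the pup (log2 fold change 0.76, SE 0.23, adjusted p = 0.0889) but passed with it (adjusted p = 0.0197). Itga6, the alpha6 integrin gene, and Krt14, the basal keratin gene, gave log2 fold changes of -0.08 (SE 0.22) and -0.05 (SE 0.29) with overlapping libraries. Both populations carried the basal markers of the gate.

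Hair germ of transgenic pups differed from IFE of the same pups mainly by genes that were lower in hair germ. Of 14176 genes tested with edgeR's quasi-likelihood test, 655 passed at a Benjamini-Hochberg adjusted p under 0.05, or 4.62%. Of these, 124 (0.875%) were higher in hair germ and 531 (3.75%) were lower, while the median log2 fold change of all genes tested was 0.02. Of all genes tested, 7287 had a log2 fold change above 0 and 6889 below 0. The list counts given further on are to be read beside these shares. With the pup as a block 1018 genes passed (7.18%), 270 higher (1.9%) and 748 lower (5.28%), and 644 of the 655 were among them. The 124 higher genes had a median log2 fold change of 1.44, with within-pup medians of 1.40 in pup 4 and 1.52 in pup 6. The 531 lower genes had a median of -2.58, also with the 15 genes at 0 counts in both hair germ libraries set to their bounds. All 655 had the same sign in both pups and CPM values that did not overlap between populations. Of all genes tested 55.2% had no overlap. Since the 655 were picked on these same libraries, their agreement follows largely from the selection and adds no support. In sorted populations of this kind, fewer cells of a type and less RNA per cell cannot be told apart.

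**Figure D1:**
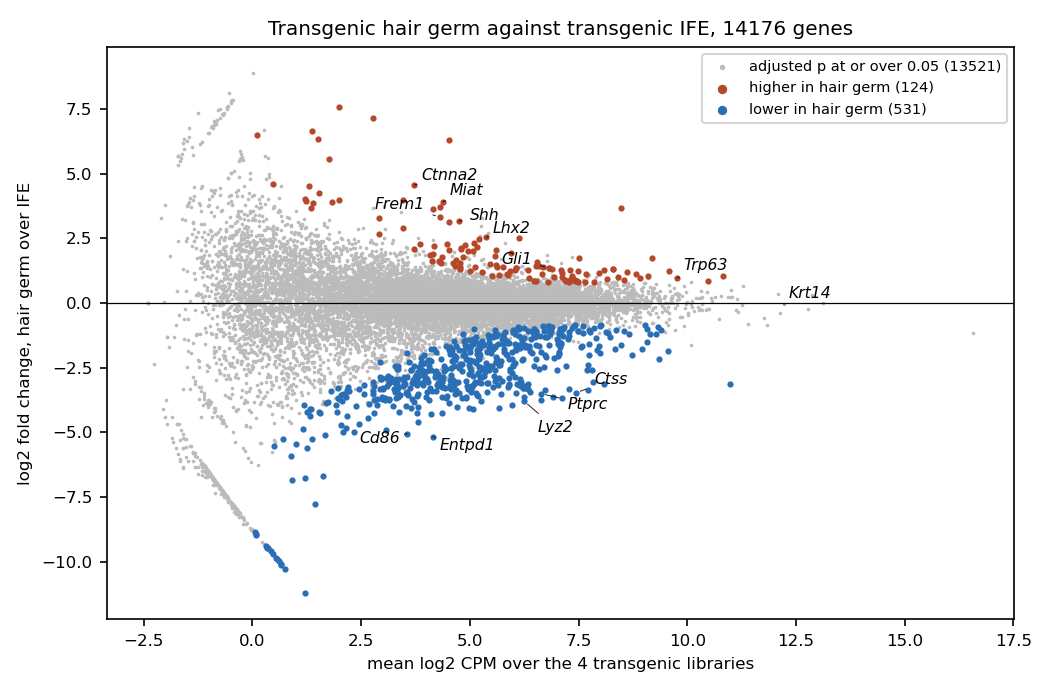
Mean level (horizontal, log2 CPM over the 4 transgenic libraries) and log2 fold change of hair germ over IFE (vertical) for 14176 genes, with the 124 genes higher in hair germ in red, the 531 lower in blue and the rest in grey. The red points have a median of 1.44 and the blue ones, which are more numerous, of -2.58.

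The calls rested on all 4 libraries. Without hair germ of pup 4, hair germ of pup 6, IFE of pup 4 or IFE of pup 6, the count was 237, 47, 211 and 368 genes, and without either whole pup it was 0 (pup 4 left out) and 1 (pup 6 left out). Without control hair germ of pup 3 or pup 5 it was 1026 and 1004, with 15206 and 15128 genes past the filter. Of the 109 named genes that passed, 14 passed in each of the 4 fits without 1 transgenic library. They include Col27a1 and Ctgf, higher in hair germ, and Tgfbr1, B2m, Gusb, Plxnd1, Lsp1, Ctsz, Vim, Ptprc, Dock2 and Cd86, lower.

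**Figure D2:**
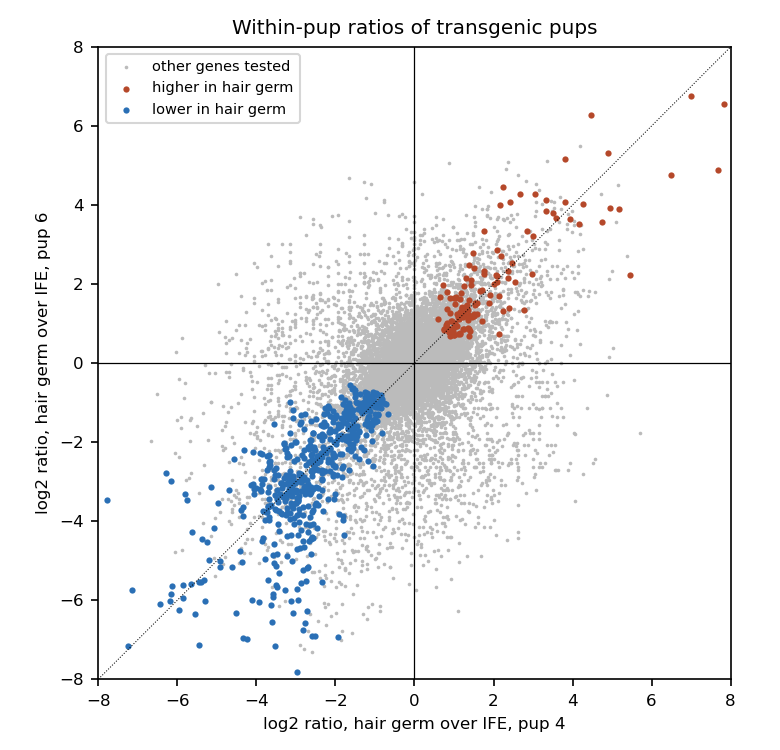
Log2 ratio of hair germ over IFE within pup 4 (horizontal) and within pup 6 (vertical) for the genes tested, with the dotted line at equal ratios and 3 genes outside the axes. All 124 red and all 531 blue points, which were picked on these same libraries, lie in the lower left or upper right, where both pups share a sign.

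Several genes of the hair germ and placode were higher in the libraries labelled hair germ. Of 26 list members tested, 7 rose (against 0.875% of all genes), 0 fell and 21 had a log2 fold change above 0, with a median of 1.03, and 11 rose with the pup as a block. Lhx2, a transcription factor of follicle progenitors (chromosome 2, 38339271 to 38369737, GRCm38), stood at 75.8 and 126 CPM in hair germ of pups 4 and 6, against 17.5 and 17.2 CPM in IFE (log2 fold change 2.54, SE 0.39, adjusted p = 0.00358). The 2 IFE libraries were close to each other and both hair germ libraries lay well above them. Edar, the ectodysplasin receptor, stood at 60.0 and 120.2 CPM in hair germ of pups 4 and 6, against 33.6 and 34.5 CPM in IFE (log2 fold change 1.40, SE 0.35, adjusted p = 0.043). Krt17, a keratin of follicle and activated epithelium, stood at 2937 and 2315 CPM in hair germ of pups 4 and 6, against 1241 and 1279 CPM in IFE (log2 fold change 1.06, SE 0.24, adjusted p = 0.0255). Both genes were higher in each hair germ library than in either IFE library. Lrp4, a receptor that tempers Wnt signals, stood at 525 and 826 CPM in hair germ of pups 4 and 6, against 296 and 321 CPM in IFE (log2 fold change 1.13, SE 0.23, adjusted p = 0.0164). Members that did not pass included Sox9, a follicle stem cell factor, at 0.71 (adjusted p = 0.145), Lef1, a nuclear mediator of Wnt signals, at 0.32 (adjusted p = 0.719), and Trps1 at -0.56 (adjusted p = 0.324). Tgfb2, a growth factor of the follicle bud, stood at 1.84 and passed with the block (adjusted p = 0.0551 without it and 0.00345 with it). Without hair germ of pup 4, hair germ of pup 6, IFE of pup 4 or IFE of pup 6, 5, 0, 1 and 3 members rose, and the list median was 0.81, 0.78, 0.89 and 0.98.

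Of 15 Hedgehog pathway members tested, 6 rose in hair germ (against 0.875% of all genes) and 0 fell. The median was 0.86, with 14 members above 0 (against 7287 of 14176 genes). The ligand Shh (chromosome 5, 28456840 to 28467101) stood at 42.9 and 143 CPM in hair germ of pups 4 and 6, against 5.80 and 14.1 CPM in IFE (log2 fold change 3.16, SE 0.59, adjusted p = 0.0106). Both hair germ libraries exceeded both IFE libraries, and pup 6 was the higher pup in each population. Ptch1, the main receptor and also a Hedgehog target, stood at 463 and 499.7 CPM in hair germ of pups 4 and 6, against 245 and 238 CPM in IFE (log2 fold change 1.0, SE 0.20, adjusted p = 0.0152). Gli1, a transcription factor widely read as a Hedgehog target, stood at 186 and 176 CPM in hair germ of pups 4 and 6, against 76.3 and 65.3 CPM in IFE (log2 fold change 1.36, SE 0.25, adjusted p = 0.00904). Both response genes were separated between the populations in both pups. Gli2, the main activating Gli factor, gave 1.05 (adjusted p = 0.0153), and Smo, the signal transducer, 0.86 (adjusted p = 0.0429). Gli3 (0.81) and Gas1, a co-receptor (0.94), passed with the block alone, and the co-receptors Cdon and Boc gave -0.21 and 0.30. Exons of Shh share 15.7% and 12.7% of their bases with genes annotated on the opposite strand, 9530036O11Rik and Gm26894, and since the strand setting of the counting is not stated, their reads cannot be told apart. Without hair germ of pup 4, hair germ of pup 6, IFE of pup 4 or IFE of pup 6, 2, 0, 0 and 2 members rose, while the list median stayed between 0.87 and 1.0.

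**Figure D3:**
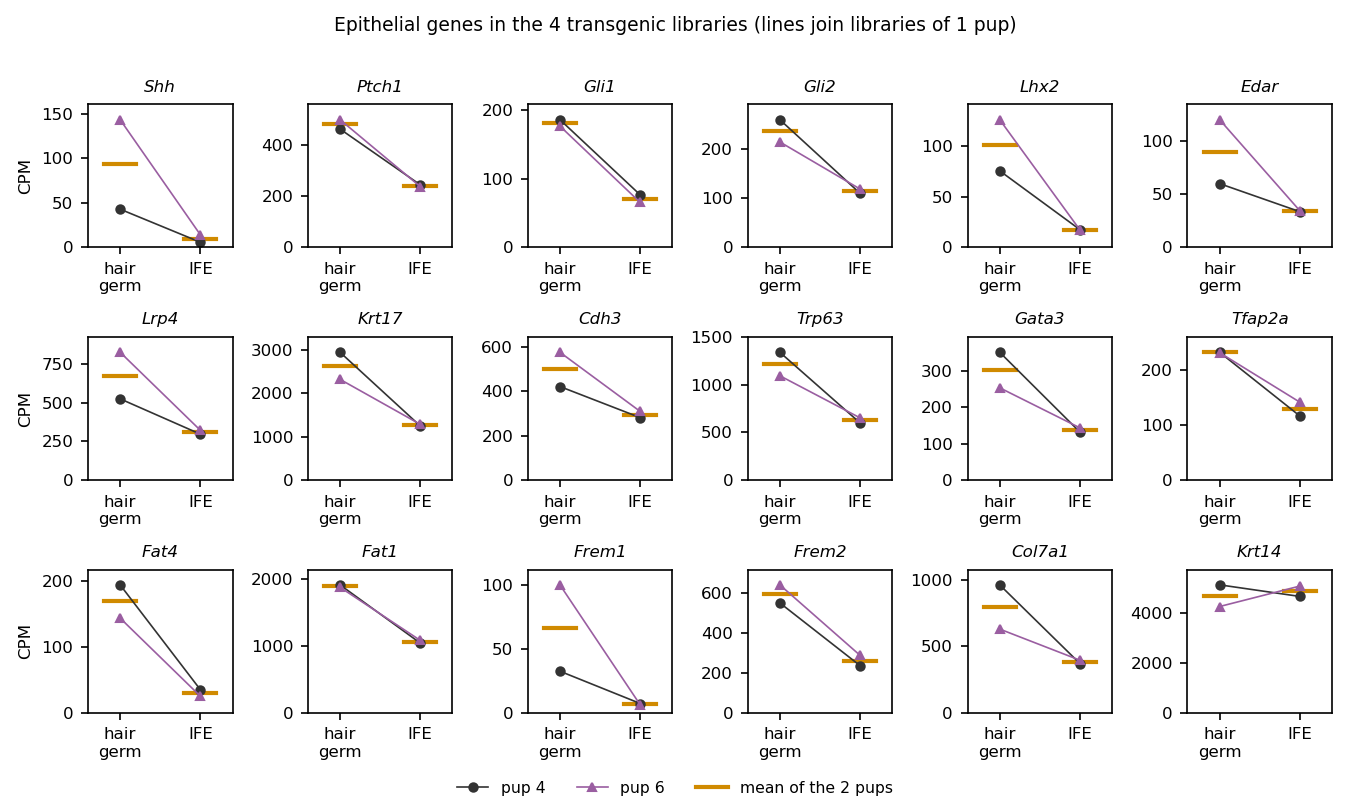
CPM of 18 epithelial genes in hair germ (left) and IFE (right) of transgenic pups 4 (circles) and 6 (triangles), with lines joining libraries of 1 pup and bars at the mean of the 2 pups. In each panel but that of Krt14 both hair germ values lie above both IFE values, as for Gli1 at 186 and 176 against 76.3 and 65.3 CPM.

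Few Wnt pathway genes passed the test, though most were above 0. Of 47 members tested, 3 rose (Lrp4, Dkk3 and Rnf43), against 0.875% of all genes, and 0 fell. Above 0 were 45, against 7287 of all 14176 genes, with a median of 0.77. With the block 10 rose, against 1.9% of all genes. Dkk3, a secreted Dickkopf family protein, gave 1.39 (adjusted p = 0.0302), and Rnf43, a ubiquitin ligase that removes Frizzled receptors, 0.81 (adjusted p = 0.0475). Axin2, a standard Wnt target, stood at 137 and 154 CPM in hair germ of pups 4 and 6, against 63.5 and 83.4 CPM in IFE (log2 fold change 0.98, SE 0.27, adjusted p = 0.0604, and adjusted p = 0.0185 with the block). Without the single transgenic libraries in the order above, 1, 0, 0 and 0 Wnt members rose.

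Genes of the transforming growth factor and bone morphogenetic protein pathways passed in both directions. Of 38 members tested, 3 rose and 4 fell (against 0.875% and 3.75% of all genes), and 5 rose and 4 fell with the block. The rises were the secreted proteins Bmp3 (2.10), Tgfb3 (1.39) and Fstl1 (1.64). The falls were the receptors Tgfbr1 and Tgfbr2, the Tgf-beta-induced matrix protein Tgfbi and the transcriptional inhibitor Id2. The macrophage sums given further on were higher in transgenic IFE, and their part in these falls was not tested. Tgfbr1 (chromosome 4, 47353222 to 47414926) stood at 91.6 and 91.4 CPM in hair germ of pups 4 and 6, against 495 and 465 CPM in IFE (log2 fold change -2.39, SE 0.19, adjusted p = 0.000153). Its 4 transgenic values lay in 2 tight pairs. In control pups 3 and 5 it stood at 67.6 and 69.0 CPM in hair germ, against 96.3 and 99.0 CPM in IFE. Tgfbi stood at 376 and 248 CPM in hair germ of pups 4 and 6, against 1534 and 1288 CPM in IFE (log2 fold change -2.17, SE 0.35, adjusted p = 0.0043), and Tgfbr2 gave -1.02 (adjusted p = 0.0108). Without the single libraries in the same order the rises were 1, 0, 0 and 0 and the falls 2, 1, 2 and 2.

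Genes of planar cell polarity, the system that aligns cells and hairs within the plane of the skin, were above 0 throughout the list, with 3 passing. Of 22 members tested, 3 rose (against 0.875% of all genes), 0 fell and 22 were above 0 (against 7287 of 14176 genes). The median was 0.66, and 5 rose with the block. Fat4, an atypical cadherin (chromosome 3, 38884667 to 39011992), stood at 194 and 144 CPM in hair germ of pups 4 and 6, against 34.8 and 24.9 CPM in IFE (log2 fold change 2.51, SE 0.57, adjusted p = 0.0275). Fat1, a related cadherin, stood at 1915 and 1879 CPM in hair germ of pups 4 and 6, against 1041 and 1082 CPM in IFE (log2 fold change 0.84, SE 0.20, adjusted p = 0.039), and Ptk7, a pseudokinase of Wnt and polarity signalling, gave 0.85 (adjusted p = 0.0432). The core gene Vangl2 gave 1.04 (adjusted p = 0.0584, and 0.0388 with the block), and Celsr1 0.45 (adjusted p = 0.237). Without any 1 of the 4 transgenic libraries 0 members rose, with list medians of 0.55 to 0.70. Of 24 apical-basal polarity genes 0 passed without the block and 2 rose with the block, with a median of 0.41.

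Few junction genes passed, beside 0.875% of all genes higher and 3.75% lower. Of 20 adherens junction genes 1 rose, Ctnna2, an alpha-catenin best known from neurons, at 61.4 and 63.6 CPM in hair germ of pups 4 and 6, against 4.18 and 1.59 CPM in IFE (log2 fold change 4.56, SE 1.0, adjusted p = 0.023). With the block 4 adherens junction genes rose, Cdh3 among them. E-cadherin (Cdh1) gave 0.20 (adjusted p = 0.696) and beta-catenin (Ctnnb1) 0.19 (adjusted p = 0.711). Of 15 desmosome genes 0 passed, also with the block, with a median of 0.08. Of 17 tight junction genes 1 rose, the cingulin relative Cgnl1, at 66.3 and 68.2 CPM in hair germ of pups 4 and 6, against 16.3 and 17 CPM in IFE (log2 fold change 2.01, SE 0.29, adjusted p = 0.00294). Ctnna2 did not pass in any of the 4 fits without 1 transgenic library, and Cgnl1 did not pass without hair germ of pup 6.

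Several basement membrane and collagen genes rose in hair germ. Of 28 basement membrane and hemidesmosome genes 4 rose and 1 fell (against 0.875% and 3.75% of all genes), with a median of 0.44. With the block 10 rose and 1 fell. Frem1, an extracellular matrix protein of the Fraser complex that anchors epidermis to dermis, stood at 32.5 and 100.2 CPM in hair germ of pups 4 and 6, against 7.15 and 6.12 CPM in IFE (log2 fold change 3.32, SE 0.61, adjusted p = 0.00928). Frem2, its partner in that complex, stood at 552 and 643 CPM in hair germ of pups 4 and 6, against 236 and 288 CPM in IFE (log2 fold change 1.19, SE 0.20, adjusted p = 0.00604). Both were higher in each hair germ library, and for Frem1 that of pup 6 was the highest. Col7a1, the anchoring fibril collagen, gave 1.06 (adjusted p = 0.0293) and Col4a2, a basement membrane collagen, 1.16 (adjusted p = 0.0437). The fall was Nid2, a nidogen, at 6.69 and 3.64 CPM in hair germ against 36.7 and 39.5 CPM in IFE (log2 fold change -2.85, SE 0.68, adjusted p = 0.0309). Of 14 collagens outside the basement membrane 4 rose and 0 fell, with a median of 1.16. Col27a1 stood at 67.0 and 110.4 CPM in hair germ of pups 4 and 6, against 14.6 and 16.7 CPM in IFE (log2 fold change 2.49, SE 0.32, adjusted p = 0.00153). Col12a1 stood at 1259 and 1093 CPM in hair germ of pups 4 and 6, against 496 and 512 CPM in IFE (log2 fold change 1.22, SE 0.20, adjusted p = 0.00532). Col14a1 gave 2.14 and Col5a1 1.28. Fibroblast genes, the defining ones of the main other source of collagen in skin, summed to 106 and 142 CPM in hair germ against 61.8 and 93.5 CPM in IFE, and 0 of the 5 tested passed (1 rose with the block, Col1a2). Their part in the collagen values was not tested. In control pups the list medians were 0.06 for basement membrane genes and 0.16 for the other collagens. The other collagens summed to 2039 and 1945 CPM in transgenic hair germ against 859 and 907 CPM in transgenic IFE. In control pups 3 and 5 the sums were 1630 and 1620 CPM in hair germ against 1881 and 1641 CPM in IFE. In either list 0 members differed between genotypes at an adjusted p under 0.05 without the block. Without the single transgenic libraries in the order used above, 2, 0, 0 and 1 basement membrane genes and 2, 1, 1 and 2 other collagens rose.

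Few regulators of epidermal lineage passed. Of 22 transcription factors 3 rose and 1 fell (against 0.875% and 3.75% of all genes), and 5 rose and 3 fell with the block. Trp63, the master factor of stratified epithelium (chromosome 16, 25683763 to 25892088), stood at 1339 and 1093 CPM in hair germ of pups 4 and 6, against 598 and 651 CPM in IFE (log2 fold change 0.96, SE 0.20, adjusted p = 0.0202). Gata3 and Tfap2a, factors of follicle and epidermal differentiation, gave 1.14 (adjusted p = 0.0255) and 0.85 (adjusted p = 0.0285). Cebpb, a differentiation factor, stood at 69.6 and 55.7 CPM in hair germ of pups 4 and 6, against 131 and 137 CPM in IFE (log2 fold change -1.09, SE 0.25, adjusted p = 0.0285). The part of the macrophage sums, given further on, in the fall of Cebpb was not tested. Of 20 basal epidermis genes, Trp63 was the 1 that rose and 0 fell, with a median of 0.21, and 2 rose with the block. Of 21 suprabasal and cornified envelope genes 0 passed without the block, with a median of -0.44. Krt1, a keratin of the suprabasal layers, stood at 709 and 482 CPM in hair germ of pups 4 and 6, against 1443 and 989.8 CPM in IFE (log2 fold change -1.03, SE 0.39, adjusted p = 0.173, and adjusted p = 0.00459 with the block). With the block Krt1 was the 1 member that fell and Calm4, a calmodulin-like gene of the epidermis, the 1 that rose (0.69, adjusted p = 0.046). Of 30 G1/S and 26 G2/M genes 0 passed in either fit, with medians of 0.40 and 0.34. The 4 factor calls were lost without any 1 transgenic library.

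**Figure D4:**
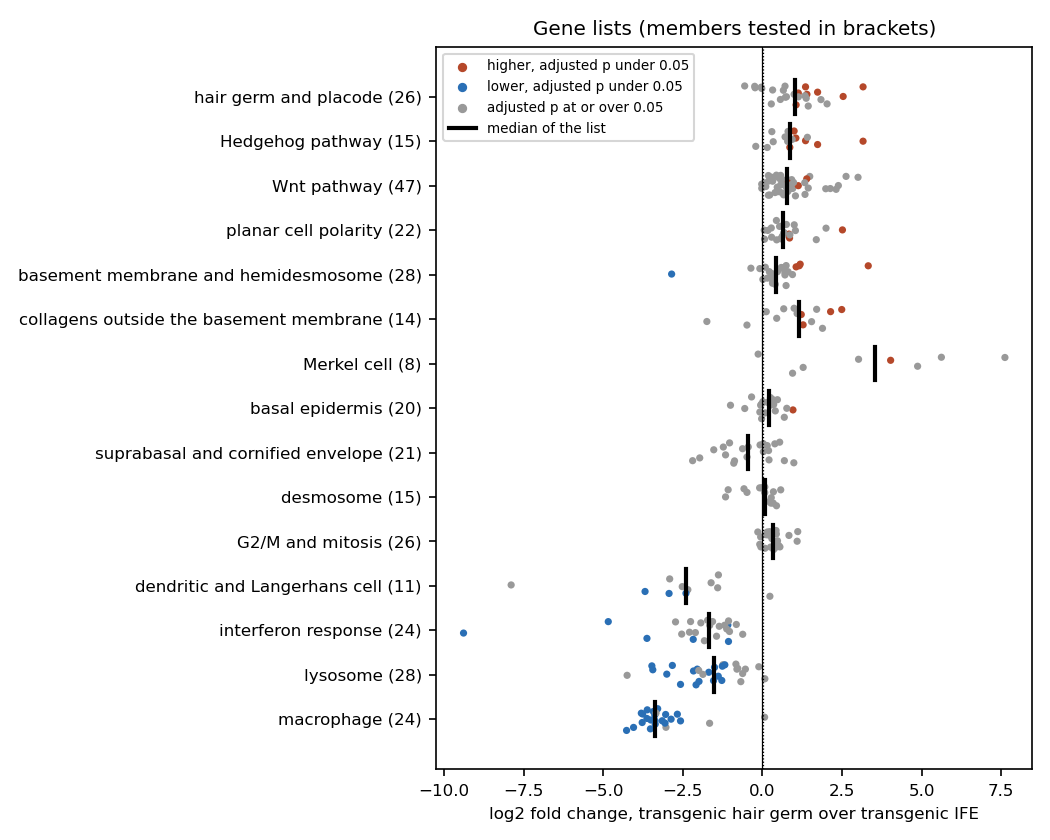
Log2 fold change of hair germ over IFE in transgenic pups for the members of 15 gene lists, with members tested in brackets, black bars at the list medians and a dotted line at the median of all genes tested (0.02). Coloured points passed at an adjusted p under 0.05, among them 6 red Hedgehog genes and 20 blue macrophage genes.

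The largest rises in hair germ, past a mean of 2 log2 CPM and without clone-named genes, were 15 genes of varied function. Flt1, a receptor for vascular endothelial growth factors, stood at 32.7 and 56.1 CPM in hair germ of pups 4 and 6, against 2.16 and 3.17 CPM in IFE (log2 fold change 3.99, SE 0.86, adjusted p = 0.0205). Of 8 endothelial genes tested it was the 1 that passed, while 6 were above 0 and 2 below, with a median of 2.13. The endothelial list, Flt1 included, summed to 60.6 and 78.5 CPM in hair germ against 23.9 and 20.8 CPM in IFE. The defining endothelial gene Pecam1 went the other way, at 1.85 and 0 CPM in hair germ against 4.45 and 4.99 CPM in IFE. Miat, a long noncoding RNA, stood at 95.3 and 65.7 CPM in hair germ of pups 4 and 6, against 5.13 and 5.52 CPM in IFE (log2 fold change 3.91, SE 0.64, adjusted p = 0.00472), and 13.7% of its exon bases are shared with Gm26953 on the opposite strand. Plekhh2, a cytoskeletal adaptor, was the most abundant of the 15 at 1393 and 1201 CPM in hair germ of pups 4 and 6, against 137 and 68.5 CPM in IFE (log2 fold change 3.66, SE 0.75, adjusted p = 0.0169). The populations did not overlap for any of these 3 genes. Spire2, an actin nucleator, gave 3.65, Fn3krp, an enzyme of protein deglycation, 3.14, and Scube3, a secreted matrix protein of the Scube family, 2.89. The others were Ctnna2, Frem1, Shh, Lhx2, Fat4 and Col27a1, given above, and Calm5 (2.68), Abi3bp (2.32) and Sox13 (2.28). Gm6537 and 1700028I16Rik, chosen after their values were seen, rose further, by 6.32 and 7.14. Elsewhere, Fn1, which encodes fibronectin, stood at 841 and 1364 CPM in hair germ of pups 4 and 6, against 265 and 386 CPM in IFE (log2 fold change 1.76, SE 0.29, adjusted p = 0.00543), and Ctgf, a matricellular target of Yap signalling, at 147 and 94.0 CPM in hair germ against 27.8 and 35.9 CPM in IFE (log2 fold change 1.92, SE 0.28, adjusted p = 0.00294).

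Most macrophage genes fell in hair germ. Of 24 macrophage genes tested, 20 fell (against 3.75% of all genes) and 0 rose, with a median of -3.37. Ptprc, the pan-leukocyte antigen CD45 (chromosome 1, 138062859 to 138175756), stood at 29.0 and 30.5 CPM in hair germ of pups 4 and 6, against 378 and 296 CPM in IFE (log2 fold change -3.50, SE 0.24, adjusted p = 8.49e-05). Csf1r, the receptor for macrophage colony-stimulating factor, stood at 124 and 64.3 CPM in hair germ of pups 4 and 6, against 969 and 707 CPM in IFE (log2 fold change -3.15, SE 0.59, adjusted p = 0.00984). Mrc1, the mannose receptor of tissue macrophages, stood at 68.6 and 63.6 CPM in hair germ of pups 4 and 6, against 767 and 596 CPM in IFE (log2 fold change -3.36, SE 0.51, adjusted p = 0.00348). Both IFE libraries were several times above both hair germ libraries for all 3. Lyz2, a lysozyme, gave -3.80, Sfpi1, which encodes the myeloid factor PU.1, -3.37, C1qc, a complement subunit, -3.77, and Spp1, a secreted phosphoprotein, -3.62. The sort had taken K14RFP-positive cells high for alpha6 integrin. The whole list, of which Lyve1 was at 0 in all 8 libraries, summed to 571 and 386 CPM in transgenic hair germ and to 5479 and 4217 CPM in transgenic IFE, against 224 and 94.6 CPM in control hair germ and 344 and 156 CPM in control IFE. Without hair germ of pup 4, hair germ of pup 6, IFE of pup 4 or IFE of pup 6, 11, 3, 18 and 20 members fell, with list medians of -3.74, -3.07, -3.18 and -3.54.

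**Figure D5:**
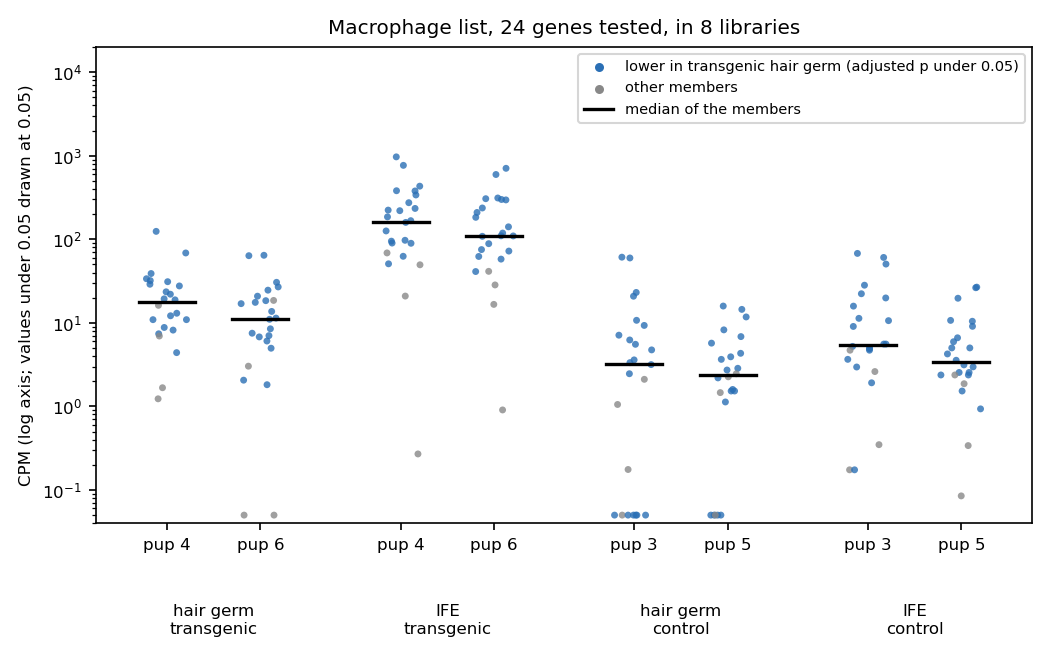
CPM (log axis) of the 24 macrophage genes tested in each of the 8 libraries, with genes lower in transgenic hair germ in blue, the other members in grey and black bars at the median of the members. The 2 transgenic IFE libraries stand above the 6 others, with summed levels of 5479 and 4217 CPM against 571 CPM in the next library.

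The 15 largest falls past the same level filter were Entpd1, Cd86, Klhl6, Mmp19, Fxyd5, Oas2, Mndal, Pde1b, Lhfpl2, Themis2, Ccl3, Olfml3, Cd36, Fcer1g and Rftn1, with log2 fold changes of -5.17 to -4.25. Entpd1, the ectonucleotidase CD39, stood at 3.17 and 2.54 CPM in hair germ of pups 4 and 6, against 123 and 86.3 CPM in IFE (log2 fold change -5.17, SE 0.75, adjusted p = 0.00294). Cd86, a costimulatory ligand of antigen-presenting cells, stood at 2.82 and 1.21 CPM in hair germ of pups 4 and 6, against 90.9 and 50.0 CPM in IFE (log2 fold change -5.05, SE 0.57, adjusted p = 0.000899). The hair germ values of both were under 4 CPM. Klhl6, Mmp19, Fxyd5, Oas2 and Ccl3 had 0 counts in 1 hair germ library each, and the SE of Klhl6 was 1.19.

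Promoters of genes lower in hair germ are shown because the gene for PU.1 was among those that fell. The letters searched were GAGGAAGT, the core that PU.1 is known to bind, on both strands, within 250 bases before to 50 after each annotated start. They were in 8.12% of 505 promoters matched by symbol to 393 of the 531 lower genes. They were in 2.94% of 102 promoters of 87 of the 124 higher genes, in 3.11% of 13113 promoters of genes tested and in 3.20% of all 32851 promoters. The letters ACCACCC, a core that Gli factors are known to bind, were searched in the same way. They were in 6.93% of the promoters of lower genes, 4.90% of those of higher genes, 4.84% of those of genes tested and 4.61% of all. The 3 shown are among 6 named lower genes with a match. The sequences below are from RefSeq (GRCm38.p6), 5′ to 3′ on the strand of the gene, which is plus for Ctss and minus for C1qc and Rftn1, and the match is in capitals in either orientation.
Ctss promoter, chr3:95526536-95526835: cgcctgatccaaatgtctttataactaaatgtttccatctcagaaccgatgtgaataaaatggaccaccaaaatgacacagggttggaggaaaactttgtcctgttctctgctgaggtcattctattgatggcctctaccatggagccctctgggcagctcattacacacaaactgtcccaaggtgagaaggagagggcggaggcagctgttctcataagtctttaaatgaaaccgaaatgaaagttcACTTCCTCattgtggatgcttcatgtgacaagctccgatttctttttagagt
C1qc promoter, chr4:136892865-136893164: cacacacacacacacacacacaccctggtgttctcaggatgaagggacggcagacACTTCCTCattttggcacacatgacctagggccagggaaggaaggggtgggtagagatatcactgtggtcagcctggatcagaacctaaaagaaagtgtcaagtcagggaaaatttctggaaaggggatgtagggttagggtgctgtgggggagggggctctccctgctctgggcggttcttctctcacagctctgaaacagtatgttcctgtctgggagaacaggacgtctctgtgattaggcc
Rftn1 promoter, chr17:50190448-50190747: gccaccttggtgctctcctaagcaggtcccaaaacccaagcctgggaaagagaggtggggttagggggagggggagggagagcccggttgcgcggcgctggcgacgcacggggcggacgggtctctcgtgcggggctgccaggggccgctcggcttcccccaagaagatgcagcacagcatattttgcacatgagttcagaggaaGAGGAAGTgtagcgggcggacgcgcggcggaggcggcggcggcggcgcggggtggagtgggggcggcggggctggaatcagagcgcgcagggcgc
The match begins at position -2, -195 and -45 from the annotated start of Ctss, C1qc and Rftn1. Ctss, the lysosomal protease cathepsin S of antigen-presenting cells, stood at 67.4 and 39.4 CPM in hair germ of pups 4 and 6, against 634 and 554 CPM in IFE (log2 fold change -3.47, SE 0.39, adjusted p = 0.000899). A match describes letters in a window and not a bound site.

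Lysosome genes and some interferon response, chemokine and dendritic cell genes were lower in hair germ. Of 28 lysosome genes 16 fell (against 3.75% of all genes) and 0 rose, with a median of -1.52. Grn, the progranulin gene, stood at 115 and 100.5 CPM in hair germ of pups 4 and 6, against 516 and 340.2 CPM in IFE (log2 fold change -1.99, SE 0.24, adjusted p = 0.00111). Of 24 interferon response genes 6 fell, 0 rose and 24 were below 0 (against 6889 of 14176 genes). Their median was -1.69, and 10 fell with the block. Oas2, an antiviral synthetase, gave -4.84 (adjusted p = 0.0123). Ifit3, an interferon-induced gene, had 0 counts in hair germ and 165 in IFE, at least 52.2-fold lower against a floor of 3 counts over the group, and passed without the block (adjusted p = 0.0386) but not with it (0.053). Of 22 chemokine genes 5 fell, 0 rose and 6 were above 0, and the falls include Cxcl16 at 94.4 and 75.1 CPM in hair germ of pups 4 and 6, against 548 and 462 CPM in IFE (log2 fold change -2.57, SE 0.47, adjusted p = 0.00847). Of 11 dendritic and Langerhans cell genes 3 fell, Cd74, Itgax and H2-Aa, and 10 were below 0, with a median of -2.40. The 1 above 0 was Epcam, at 0.24 (adjusted p = 0.719). The Langerhans marker Cd207 stood at 1.41 and 0 CPM in hair germ against 3.51 and 4.53 CPM in IFE. B2m, the light chain of major histocompatibility complex class I, stood at 40.3 and 48.5 CPM in hair germ of pups 4 and 6, against 249.7 and 243 CPM in IFE (log2 fold change -2.47, SE 0.30, adjusted p = 0.00123). Gusb, a lysosomal glucuronidase often used as a housekeeping gene, stood at 27.2 and 23.4 CPM in hair germ of pups 4 and 6, against 159 and 135 CPM in IFE (log2 fold change -2.53, SE 0.26, adjusted p = 0.00069), and of 12 housekeeping genes it and B2m were the 2 that fell. Without the single libraries in the order above, 7, 2, 7 and 16 lysosome, 2, 0, 0 and 2 interferon, 2, 0, 4 and 4 chemokine and 1, 0, 3 and 2 dendritic cell genes fell. Exons overlap those of another gene on the opposite strand for Cxcl16 (20.5% of bases), Lef1 (34.5%) and Mmp19 (22.9%) and on the same strand for Spp1 (18.8%). The macrophage sums given above were also higher in transgenic IFE than in transgenic hair germ, and their part in these values was not tested.

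Some mesenchymal and cytoskeletal genes were also lower in hair germ, beside 0.875% of all genes higher and 3.75% lower. Vim, the intermediate filament of mesenchymal and blood cells (chromosome 2, 13574311 to 13582826), stood at 729 and 638 CPM in hair germ of pups 4 and 6, against 6306 and 5601 CPM in IFE (log2 fold change -3.12, SE 0.23, adjusted p = 0.000125). Both IFE libraries were far above both hair germ libraries. Of 19 miR-200 targets and epithelial-mesenchymal transition genes 2 rose, Fn1 and Flt1, and 4 fell, Vim, Zeb2, Msn and Fhod1, with a median of -0.47. Zeb2 stood at 25 and 25.7 CPM in hair germ of pups 4 and 6, against 295 and 169 CPM in IFE (log2 fold change -3.19, SE 0.48, adjusted p = 0.00314). Zeb1 stood at 2.73 and 2.18 CPM in hair germ of pups 4 and 6, against 12.3 and 13.2 CPM in IFE and did not pass (log2 fold change -2.36, SE 0.78, adjusted p = 0.114). Of 36 actin regulators 5 fell, Msn, Pfn1, Arpc2, Cdc42 and Rac1, and 0 rose, with a median of -0.26. With the block 9 fell, against 5.28% of all genes lower. Msn, which encodes moesin and links actin to the membrane, stood at 230.1 and 175 CPM in hair germ of pups 4 and 6, against 649 and 608 CPM in IFE (log2 fold change -1.63, SE 0.25, adjusted p = 0.00377). Of 28 integrin and focal adhesion genes 3 fell, Itgav (-1.56), Itga9 (-3.58) and Tln1 (-1.30), and 6 fell with the block. Without the single transgenic libraries in the same order, 2, 1, 3 and 3 target, 1, 0, 1 and 1 actin and 3, 0, 3 and 3 integrin genes fell. Macrophages also express Vim, Zeb2, Msn and Itgav, and the part of the macrophage sums above in these values was not tested.

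Markers of rarer cell types had few calls, beside 0.875% of all genes higher and 3.75% lower. Of 8 Merkel cell genes 7 were above 0, with a median of 3.52. The 1 that rose was Rab3c, a secretory vesicle protein, at 6.51 and 9.82 CPM in hair germ of pups 4 and 6, against 0.405 and 0.529 CPM in IFE (log2 fold change 4.03, SE 0.98, adjusted p = 0.0284). The whole list summed to 81.3 and 62.8 CPM in hair germ against 28.1 and 40.0 CPM in IFE, and Atoh1, the defining factor of Merkel cells, stood at 2.82 and 1.70 CPM in hair germ against 0 and 0 CPM in IFE (adjusted p = 0.212). Of 11 melanocyte genes 1 rose, the pigment enzyme Dct at 45.1 and 61.9 CPM in hair germ of pups 4 and 6, against 13.6 and 17.2 CPM in IFE (log2 fold change 1.78, SE 0.46, adjusted p = 0.0469), and 1 fell, Mitf, a factor that myeloid cells also express, at 19.01 and 16.5 CPM in hair germ against 54.1 and 43.2 CPM in IFE (log2 fold change -1.45, SE 0.37, adjusted p = 0.0457). With the block 2 melanocyte genes rose and 1 fell. The melanocyte list summed to 197 and 218 CPM in hair germ against 120.0 and 119.6 CPM in IFE. Of 9 dermal papilla genes 0 passed in either fit, while 8 were above 0, with a median of 1.22. Cd34, a marker of follicle stem cells in adult skin and of blood progenitors and vessels, was lower in hair germ at 0.440 and 0 CPM in hair germ of pups 4 and 6, against 27.4 and 26.8 CPM in IFE (adjusted p = 0.00294), and a fold against so few counts is not given. Of 18 outer root sheath, bulge and stem cell genes tested, 15 were above 0, with a median of 0.32. In that list 1 rose and 2 fell, and 5 rose and 2 fell with the block. None of Rab3c, Dct and Mitf passed without any 1 of the 4 transgenic libraries. Among growth and imprinted genes, Gpc3, a glypican that curbs growth, stood at 171 and 262 CPM in hair germ of pups 4 and 6, against 84.3 and 92.0 CPM in IFE (log2 fold change 1.29, SE 0.24, adjusted p = 0.00874), Igfbp3, a carrier of insulin-like growth factors, gave 1.22 (adjusted p = 0.0255), and the growth factor Igf2 -1.63 (adjusted p = 0.0387). Igf2 shares 68.5% of its exon bases with Gm49394 on the same strand.

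Other signalling and stress lists had few calls, beside 0.875% of all genes higher and 3.75% lower. Of 41 semaphorin, ephrin and guidance genes 2 rose and 1 fell, and 9 rose and 2 fell with the block. Robo1, a Slit receptor, stood at 351 and 511 CPM in hair germ of pups 4 and 6, against 153 and 198 CPM in IFE (log2 fold change 1.29, SE 0.25, adjusted p = 0.0122), and Sema5a, a semaphorin, gave 1.16 (adjusted p = 0.00691). Plxnd1, a semaphorin receptor of vessels and immune cells, stood at 50.3 and 30.3 CPM in hair germ of pups 4 and 6, against 275 and 197 CPM in IFE (log2 fold change -2.54, SE 0.29, adjusted p = 0.00095). Its IFE libraries were both above its hair germ libraries. Of 15 Fgf pathway genes 1 rose, the receptor Fgfr1 (1.42, adjusted p = 0.00733), while 3 rose and 1 fell with the block, and of 20 Notch pathway genes 1 fell, the nuclear effector Rbpj (-1.38, adjusted p = 0.00511). Of 20 Hippo pathway genes and Yap targets 1 rose, Ctgf, and 1 fell, Mob1a, a kinase activator (-0.98), and 3 rose and 1 fell with the block. Of 20 immediate early genes 2 fell, Ier3 and Zfp36 (4 with the block), and of 20 heat shock and unfolded protein genes 2 fell, Hspa5 and Xbp1. In lists of 20 sterol, 21 barrier lipid, 20 glycolysis and hypoxia, 22 ribosomal protein and 13 microRNA machinery genes, 0 passed without the block, and 1 ribosomal protein gene fell with the block.

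The same contrast in control pups gave 1 gene at an adjusted p under 0.05 (0.00705%), Gm6537, against 1200 at an unadjusted p under 0.05. Of the 124 genes higher in transgenic hair germ, 112 had the same sign in control pups, with a control median of 0.68. Of the 531 lower genes 391 did, with a control median of -0.37. All genes tested had a control median of -0.04. How many of all genes share a sign between the contrasts was not counted, so no background stands beside these sign counts. The difference of the population effect between transgenic and control pups passed for 19 genes (0.134%), all 19 of them lower in transgenic hair germ relative to the control contrast, against 1149 at an unadjusted p under 0.05. With the pup as a block 86 genes passed (0.607%). Dock2, a motility factor of leukocytes, differed most of the named ones, with a log2 fold change of -4.04 in transgenic pups and -0.28 in control pups (difference -3.75, SE 0.59, adjusted p = 0.0479). Its levels were 5.37 and 7.51 CPM in hair germ against 113 and 96.0 CPM in IFE of transgenic pups and 5.71 and 3.12 CPM in control hair germ of pups 3 and 5, against 6.27 and 4.58 CPM in control IFE. Transgenic IFE thus stood apart from the other 3 groups. Ptprc gave -3.50 and -0.81 (difference -2.69, SE 0.33, adjusted p = 0.0284), Vim -3.12 and -0.62 (difference -2.51, SE 0.31, adjusted p = 0.0284), and Tgfbr1 -2.39 and -0.52 (difference -1.87, SE 0.27, adjusted p = 0.0437). Among Hedgehog genes, Gli1 gave 1.36 and 1.35 (difference 0.01, SE 0.34, adjusted p = 1) and Shh 3.16 and 1.81 (difference 1.35, SE 0.86, adjusted p = 0.785), and neither difference passed. Fat4 gave 2.51 and -0.05 (difference 2.56, SE 0.78, adjusted p = 0.363), Col12a1 1.22 and -0.30 (difference 1.52, SE 0.28, adjusted p = 0.0707), and Igfbp3 1.22 and -1.05 (difference 2.27, SE 0.38, adjusted p = 0.052). None of these 3 differences passed without the block, and all 3 passed with it (adjusted p = 0.0255, 0.0188 and 0.0137). Without 1 library the count of differences was 0 for each transgenic library, 48 and 192 without control hair germ of pup 3 and pup 5, and 2 and 3 without control IFE of pup 3 and pup 5, and the 2 controls differed in genotype. The macrophage sums were highest in transgenic IFE, and their part in these differences was not tested.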

How the data were processed

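Libraries of total RNA were made with a SMARTer stranded low-input kit, and the authors deposited raw read counts per gene symbol. The submitters' processing notes name TopHat, HTSeq and DESeq2 and the build mm10 (GRCm38). For tool versions and the strand setting, the sources used here give nothing. The 5 summary lines of each count file were left out, which leaves the 23.4% to 42.4% of recorded reads assigned to genes. The deposited matrix of normalised signal was not used.

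Counts were analysed with edgeR 4.0.16 in R 4.3.3. The 8 libraries were scaled by TMM, filtered with filterByExpr to 14176 genes and fitted as 4 group means with glmQLFit (legacy set to FALSE). Contrasts were tested two-sided with glmQLFTest, with Benjamini-Hochberg adjustment over all genes tested and a threshold of 0.05. The SE was derived from the fold change and the F statistic (absolute log2 value divided by the root of F), and CPM values are scaled by TMM. A floor of 3 counts equals 0.264 and 0.364 CPM in hair germ of pups 4 and 6, against 0.405 and 0.227 CPM in IFE, and covers counting error only. The fit was tested on simulated data first. DESeq2 1.42.0, limma 3.58.1, other scalings and filters, and fits without single libraries or pups were the alternatives.

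Per the labels a pup number is 1 animal, so the 2 populations are paired. The deviations of each pup from its group means correlated at 0.0868 over all genes and at 0.191 over the 7365 genes whose mean reached 4 log2 CPM. The fit with the pup as a block is given beside a result where it changes a call or moves a count by over 1.5 times.

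The contrast, the 54 gene lists and the named genes were chosen with earlier results of these data known. Named genes were the 15 largest rises and the 15 largest falls among genes that passed, with a transgenic mean of 2 log2 CPM or more, no overlap between populations and no clone name. Each list gave up to 4 passing members ranked by p, or its first by p where 0 passed, and the difference between genotypes its 5 largest changes each way by the same filter. The sort genes and some textbook genes were added whatever their p. Other list members given with values were chosen after their values were seen. Some genes that the rule names are not reported here. Coordinates and sequences are from RefSeq (GRCm38.p6), matched by symbol, and exon overlaps from GENCODE gene models of GRCm38.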

Additional observations from a re-analysis of the deposited data

Results flagged for a closer look

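The effect of population differed between transgenic and control pups at an adjusted p under 0.05 in edgeR's test of the difference itself for the 9 named genes given here, and each value below is the log2 fold change in transgenic pups minus that in control pups. Leukocyte genes gave -3.75 for Dock2 (adjusted p = 0.0479), -3.43 for Lsp1 (0.0312), -3.33 for Akna (0.0437), -3.14 for Cxcr4 (0.0485) and -2.69 for Ptprc (0.0284). The lysosomal protease gene Ctsz gave -3.18 (0.0479), the filament gene Vim -2.51 (0.0284), the semaphorin receptor gene Plxnd1 -2.45 (0.0479) and the receptor gene Tgfbr1 -1.87 (0.0437). In each of the 4 fits without 1 transgenic library 0 differences passed, against 529 to 1359 at an unadjusted p under 0.05.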

How the results depend on the processing

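The fit without a block gave 655 genes in all, 124 higher, 531 lower and 19 differing between genotypes, and 2 libraries a group limit all 4 counts. Since the pup numbers pair the populations, the pup was also fitted as a replicate block, which gave 1018, 270, 748 and 86, and within the 4 transgenic libraries 1610, 489 and 1121, a fit chosen after seeing the data. The 4 transgenic libraries alone without a block gave 1385, 417 and 968. DESeq2 gave 906, 253, 653 and 177, and the legacy edgeR fit 336, 55, 281 and 2. Without the 2 libraries richest in Rn45s the counts were 192, 11, 181 and 0. Without a pup or a library they ranged from 0 to 1026, from 0 to 223, from 0 to 822 and from 0 to 192, and a lone library was then assumed to vary like those of the other groups. Differences between genotypes numbered 97 with library size alone, 1 without Rn45s, 45 without the filter and 1 with limma-voom. Scaling by library size alone moved the median of all genes to 0.20, against 0.02 with TMM, and the share of higher calls among all calls stood at 26.9% and 18.9%. The cause of these shifts was not tested. Every transgenic count with DESeq2 size factors, library size alone, no Rn45s, no filter, a filter of 1 CPM or limma-voom stayed within 1.5 times of the main one.

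Of the named genes 7 changed sign in some fit, and none of them had passed. For miR200primary, at 0.00 in that fit, the log2 fold change was -0.0049 with DESeq2 size factors, -0.013 without Rn45s, -0.040 without the filter, -0.0043 with DESeq2, -0.041 with limma-voom, -0.14 without the Rn45s-rich libraries, and -0.023 with the replicate block and -0.020 with it in the transgenic libraries. With library size alone it was 0.12 for Krt14 and 0.082 for Itga6. Without the Rn45s-rich libraries it was -0.054 for Lef1 and 1.25 for Rn45s. Without a library or a pup the ranges were -0.36 to 0.22 for miR200primary, -0.31 to 0.11 for Krt14, -0.38 to 0.13 for Itga6, -0.40 to 0.74 for Krt15, -2.03 to 1.26 for Rn45s, -0.037 to 0.76 for Lef1 and -0.86 to 4.07 for the erythroid gene Epb4.2.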
